A study of Homo sapiens with 12 samples.

Results

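The clustered protocadherins are 54 of the 60648 genes in the deposited count tables, taken as every row whose symbol names a numbered gene of the alpha, beta or gamma protocadherin cluster. The family was selected on measured values, its read counts with PSPC1 knockdown in OCIAML5, where PCDHGA10 was among the largest rises. They comprised 16 alpha genes, 16 beta genes and 22 gamma genes. RNA was sequenced from 2 human acute myeloid leukemia lines, MOLM13 and OCIAML5, in 6 groups of 2 libraries. In the PSPC1 experiment both lines carried either a control hairpin (shCTL) or a hairpin against PSPC1, a nuclear RNA-binding protein of paraspeckles. In the PU.1 experiment OCIAML5 carried either shCTL or a hairpin against PU.1, a transcription factor of myeloid cells that SPI1 encodes. Every group, controls included, received its hairpin by lentivirus in the presence of polybrene and was then kept under puromycin (1 µg/mL) or sorted for GFP; no source used here says which applied to which group. MOLM13 was grown with 10% fetal bovine serum. OCIAML5 was grown in another base medium with 20% serum and 10 ng/mL GM-CSF, so the lines also differ in medium and cytokine. No label tells whether libraries of 1 group are separate cultures, so p-values here measure the spread between libraries, which may be technical.

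Clustered protocadherins are cell-surface proteins of the cadherin superfamily, best known from neurons, where each cell expresses its own combination of isoforms and like combinations recognise each other. In the alpha and gamma clusters each gene has its own variable first exon with its own promoter, which is spliced to a set of constant exons at the end of the cluster. Beta genes consist of a single variable exon and have no constant part. In neurons promoter choice depends on DNA methylation and on CTCF and cohesin, which join a promoter to distant enhancers, and many of the promoters share a short element with the core letters CGCT. Genes of the C type (PCDHAC1, PCDHAC2, PCDHGC3, PCDHGC4 and PCDHGC5) are more divergent and are regulated in part separately from the others.

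All 54 genes lie on the plus strand of chromosome 5 (GRCh38, GENCODE release 29). The alpha cluster spans chr5:140786136-141012347, the beta cluster chr5:141051135-141249365 and the gamma cluster chr5:141330571-141512981. Of the 16 alpha genes, 15 shared constant exons of 59, 89 and 2718 bases, and all 22 gamma genes shared constant exons of 59, 89 and 2033 bases. A read inside these exons cannot be assigned to 1 gene. In MOLM13, PCDHGC3 held 701 and 563 reads in the controls while other gamma genes were at 0, so reads of the shared gamma exons had not been given to every gamma gene. Levels are therefore compared between genes per kilobase of private exon, meaning exonic bases that no other gene of the same strand holds, with a median of 3313.5 bases for alpha, 3850.0 for beta and 2801.0 for gamma genes. Some genes also overlap exons of long noncoding RNAs on the opposite strand, among them PCDHA3, PCDHA10, PCDHB2 and PCDHB3. The library kit marks strand, but no source used here gives the strand setting used in counting, so their reads may include the antisense partner. PCDHB9 and PCDHB14 overlap another gene on their own strand and are uncertain for that reason.

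Promoter sequences from RefSeq (GRCh38.p14) were matched to 47 of the 54 genes. The following 42-base stretches of the plus strand, written 5′ to 3′, are shown because they belong to the genes whose levels the results turn on. Capitals mark the CGCT core.

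PCDHA2 (chr5:140794771-140794812): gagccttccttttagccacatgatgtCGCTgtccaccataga
PCDHA4 (chr5:140806969-140807010): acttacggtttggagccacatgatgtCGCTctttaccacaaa
PCDHB2 (chr5:141094534-141094575): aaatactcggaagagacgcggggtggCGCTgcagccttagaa
PCDHB13 (chr5:141213855-141213896): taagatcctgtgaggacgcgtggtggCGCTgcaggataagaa
PCDHB14 (chr5:141223253-141223294): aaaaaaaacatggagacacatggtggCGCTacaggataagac
PCDHGA6 (chr5:141373825-141373866): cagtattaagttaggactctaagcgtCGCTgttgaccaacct
PCDHGA10 (chr5:141412921-141412962): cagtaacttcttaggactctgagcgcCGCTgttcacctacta
PCDHGA11 (chr5:141420962-141421003): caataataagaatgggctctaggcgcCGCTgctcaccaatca
PCDHGC3 (chr5:141475870-141475911): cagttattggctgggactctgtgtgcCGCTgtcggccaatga

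The letters around the core differed by cluster. Within the 250 bases before the start, CGCT on the sense strand was found in 12 of 13 alpha, 13 of 14 beta and 20 of 20 gamma promoters, against 51.88% of all 27305 promoters in the table (67.23% on either strand). The 3 longer strings below, which contain the core, were chosen after the sequences were seen. ATGTCGCT was found in 9 of 13 alpha promoters and in no beta or gamma promoter, against 0.14% of all promoters on the sense strand and 0.22% on either. GGTGGCGCT was found in 12 of 14 beta promoters, against 0.32% and 0.52% of all. GNCGCTGT, in which N is any base, was found in 17 of 20 gamma, 5 of 13 alpha and 1 of 14 beta promoters, against 2.25% and 4.06% of all. A match describes these letters and is not evidence that a protein binds there.

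PCDHA9 was the alpha gene without the core. Its promoter is shown over the stretch where the other alpha genes have it, and no letter is in capitals.

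PCDHA9 (chr5:140848277-140848318): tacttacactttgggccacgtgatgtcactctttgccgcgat

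Library totals ranged from 15372383 to 22757998 counts in the PSPC1 experiment and from 26305956 to 39716519 in the PU.1 experiment. PSPC1 stood at 130 and 135 CPM (reads scaled to a common library total) in MOLM13 controls against 27.1 and 27.7 after its knockdown, and at 99.1 and 98.8 against 18.9 and 19.2 in OCIAML5. SPI1 fell from 227 and 204 to 47.5 and 46.2 CPM in the PU.1 knockdown. In that same knockdown PSPC1 also fell (log2 change -0.89, edgeR adjusted p = 2.1e-23). A list of 9 myeloid leukemia markers, SPI1 included, summed to between 520 and 1450 CPM in every library. Of these, ANPEP, KIT and CD34 reached at most 0.478, 0.716 and 4.32 CPM. MPO stood at 37.7 and 35.4 CPM in MOLM13 controls and at 3.30 and 3.11 after PSPC1 knockdown. In OCIAML5 of the PSPC1 experiment it was low, at 2.07 and 2.09 CPM in controls and 0.209 and 1.0 after knockdown. A list of 8 neuronal markers summed to between 2.38 and 5.08 CPM, with STMN2 and NEFL at 0 in both libraries of every group. SNAP25 made up most of the sum in MOLM13 controls (3.33 and 3.76 CPM) and had no read in OCIAML5. MAP2 and SYP reached 1.59 and 2.36 CPM in OCIAML5. Sums of 5 epithelial markers reached at most 2.19 CPM and sums of 4 fibroblast markers at most 0.717 CPM, and in both OCIAML5 libraries with PSPC1 knockdown all 4 fibroblast markers were at 0.

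Levels of the protocadherins were low and depended strongly on the line. The number of genes with at least 1 read was 11 in each MOLM13 control library and 20 and 23 after PSPC1 knockdown. OCIAML5 controls of the PSPC1 experiment held reads in 37 and 32 genes, and the knockdown in 49 and 46. In the PU.1 experiment 33 and 38 genes held reads in the controls and 41 and 48 after knockdown. PCDHA1 and the pseudogene PCDHA14 had no read in any of the 12 libraries. Genes with 10 or more reads were fewer, from 2 in each MOLM13 library to 28 and 21 in OCIAML5 with PSPC1 knockdown. CPM here are scaled by TMM (trimmed mean of M-values) within each experiment, so levels of the experiments are set side by side and not tested against each other. In these bulk samples, fewer expressing cells and less RNA per cell cannot be told apart.

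**Figure D1:**
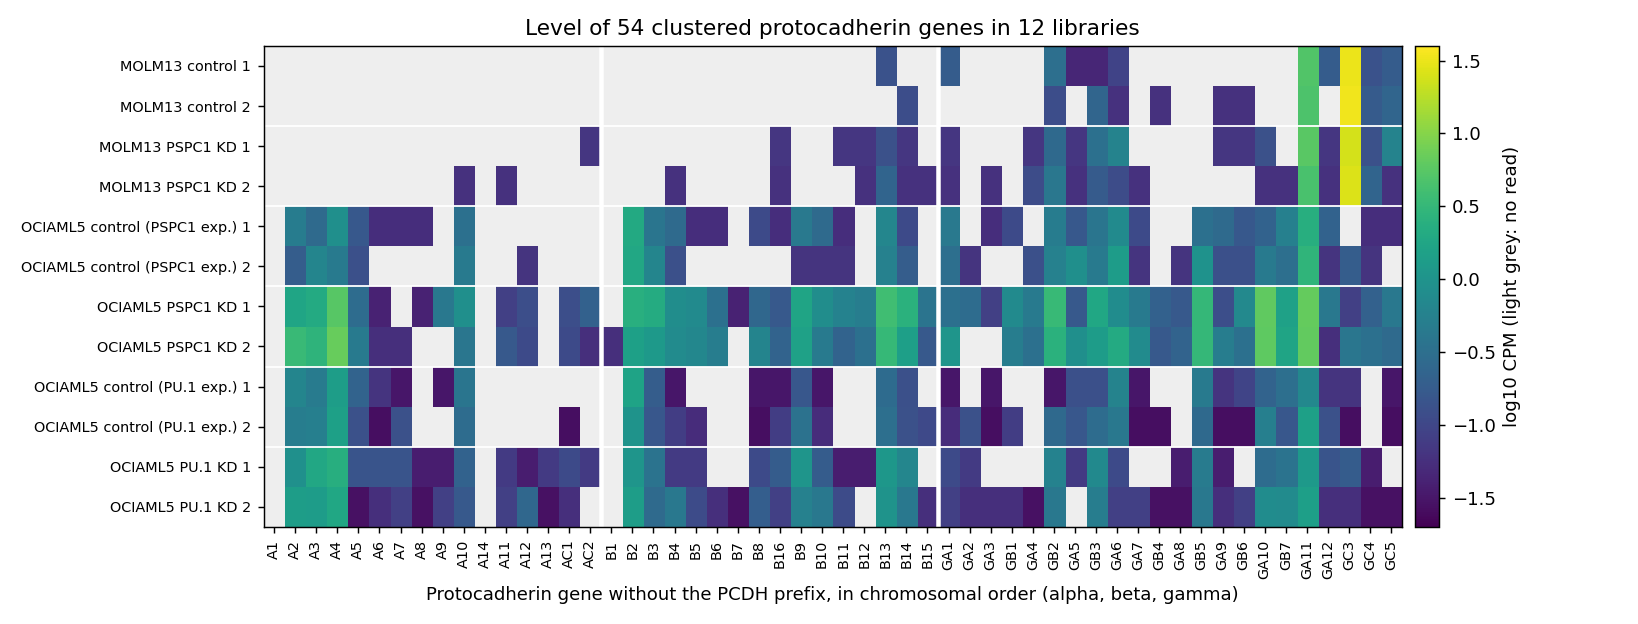
Level of each of the 54 genes (columns, chromosomal order, with white lines between the alpha, beta and gamma clusters) in each of the 12 libraries (rows), as log10 CPM, with light grey for no read. MOLM13 rows are nearly empty apart from PCDHGC3 and PCDHGA11, and the OCIAML5 rows with PSPC1 knockdown hold reads in 49 and 46 genes.

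Summed by cluster, alpha genes stood at 0 reads in both MOLM13 control libraries and at 0.0916 ± 0.0363 CPM (SD, n = 2) after PSPC1 knockdown. In OCIAML5 the alpha sum was 2.09 ± 0.273 CPM in the PSPC1 controls and 11.7 and 14.4 CPM in the libraries with PSPC1 knockdown. It was 3.19 ± 0.0539 CPM in the PU.1 controls and 5.83 ± 0.583 after PU.1 knockdown. The alpha cluster thus had almost no reads in MOLM13 in any state. Beta genes were also higher after both knockdowns in OCIAML5, with 4.03 ± 0.603 CPM in the PSPC1 controls, 15.2 ± 3.09 after PSPC1 knockdown, 2.42 ± 0.12 in the PU.1 controls and 5.01 ± 0.103 after PU.1 knockdown. In MOLM13 the beta sum was 0.128 ± 0.0124 CPM in controls and 0.461 ± 0.0933 after knockdown, from 3 and 2 against 6 and 9 reads. Gamma genes were the only cluster higher in MOLM13 than in OCIAML5 controls, at 38.8 ± 0.745 against 7.86 ± 1.67 CPM. With PSPC1 knockdown they stood at 32.2 in both MOLM13 libraries and at 28.6 ± 0.536 CPM in OCIAML5. In the PU.1 experiment the gamma sum was 3.57 ± 0.837 CPM in controls and 4.83 ± 0.515 after knockdown.

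**Figure D2:**
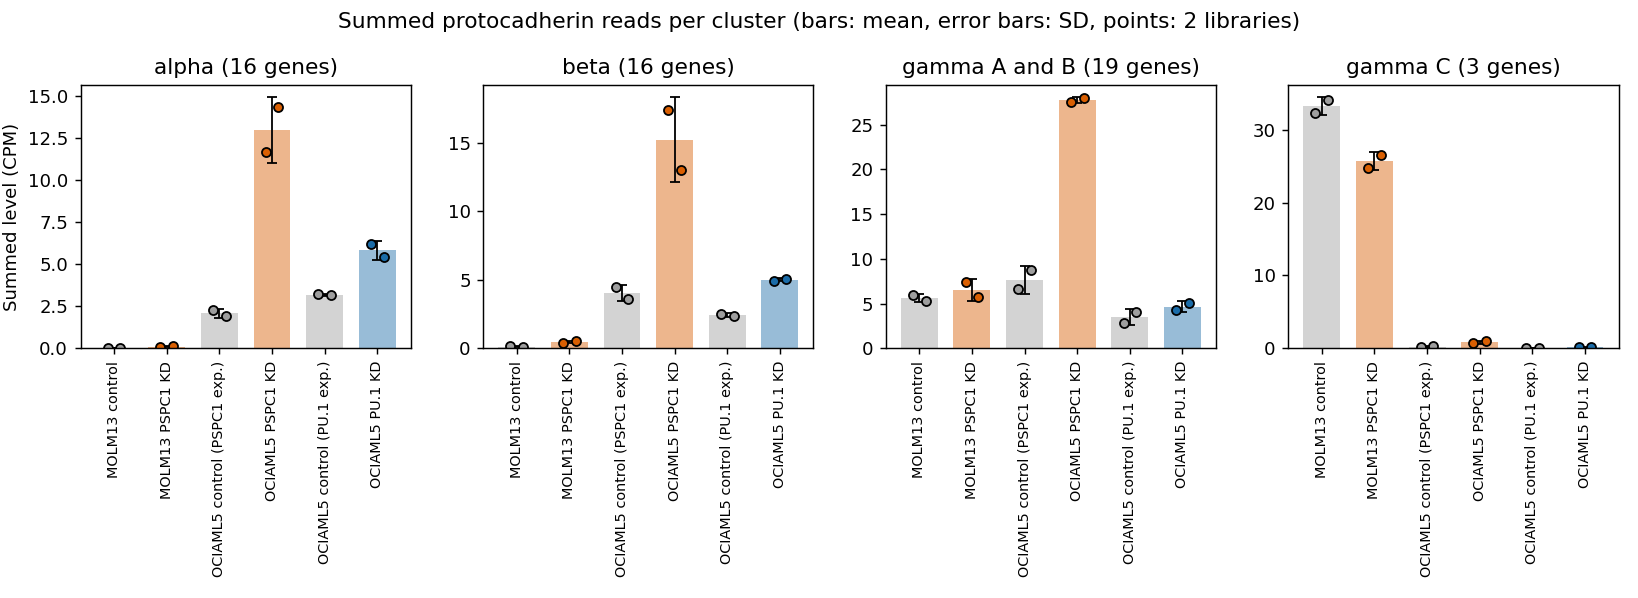
Summed CPM of the alpha genes, the beta genes, the gamma A and B genes and the gamma C genes in the 6 groups (bars: mean of 2 libraries, error bars: SD, points: libraries, each panel with its own linear axis from 0). The alpha, beta and gamma A and B panels peak in OCIAML5 with PSPC1 knockdown, and the gamma C panel is high in MOLM13, at 33.2 CPM in controls.

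The first comparison set the control cells of the lines side by side. MOLM13 carried essentially a pair of protocadherins, PCDHGC3 and PCDHGA11, whereas OCIAML5 carried many at low level. PCDHGC3, a C-type gamma gene, had 701 and 563 reads in the MOLM13 controls (32.8 ± 1.15 CPM) against 0 and 3 in the OCIAML5 controls (0.0948 ± 0.134 CPM). The groups were far apart, with a ratio of 373 (95% counting interval 127 to 1810) and a log2 difference of 8.44 ± 0.33 (SE; edgeR quasi-likelihood test, Benjamini-Hochberg adjusted p = 8.5e-28). Its fitted log2 difference was 7.39 without the first OCIAML5 control and 12.27 without the second, which leaves 0 reads on that side and gives no bound; it stayed past the threshold in both. It accounted for 84.4% of all gamma reads in MOLM13 controls (95% Wilson interval 82.5 to 86.1%). Without it, the gamma sum was lower in MOLM13 than in OCIAML5, at 6.02 ± 0.401 against 7.77 ± 1.53 CPM, and those libraries did not overlap.

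PCDHGA11, a gamma gene of the A type, was the other member that passed the test in this direction. It had 112 and 79 reads in MOLM13 controls (4.92 ± 0.279 CPM) and 43 and 46 in OCIAML5 controls (2.62 ± 0.404 CPM), a log2 difference of 0.92 ± 0.26 (edgeR adjusted p = 0.0024). The C-type genes PCDHGC4 (3 and 3 reads against 1 and 1) and PCDHGC5 (4 and 4 against 1 and 0) also had both MOLM13 libraries above, with too few reads to be tested. No other tested member held more than 9 reads over the MOLM13 controls. PCDHB2 had 37 and 30 reads in the OCIAML5 controls and none in MOLM13, at least 25.2-fold lower against a floor of 3 reads over the group. PCDHA4 had 16 and 7 reads against none, at least 8.66-fold lower. By the same bound PCDHGB5 was at least 7.9-fold, PCDHB3 6.4-fold, PCDHA3 and PCDHGB7 5.65-fold, PCDHA2 4.52-fold, PCDHGA10 4.14-fold, PCDHB9 3.39-fold and PCDHB4 2.63-fold lower. PCDHGA6 had 3 reads against 35, PCDHB13 3 against 21 and PCDHGA5 1 against 17.

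In edgeR's test, 15 of 19 tested members passed (adjusted p under 0.05; 60.6% of all 16457 tested genes did). Of these, 2 were higher in MOLM13 (30.0% of all) and 13 were lower (30.7% of all). PCDHB5, PCDHB14, PCDHGB2 and PCDHGB3 did not pass. The 19 had passed a filter on low counts taken over all 8 libraries of the experiment. A gene can meet it through OCIAML5 with PSPC1 knockdown alone, the group on which the family was selected. PCDHB5 was tested with 1 and 0 reads in the OCIAML5 controls and 18 and 12 in that group. PCDHA10, with 6 and 7 reads in the same controls, was not tested. The count of calls is therefore a description. Over all 54 genes, 43 had a read in these 4 libraries. Of these, 4 had both MOLM13 libraries above both OCIAML5 libraries (28.3% of all genes with a read) and 23 had both below (29.0% of all). PCDHB4 (5 and 2 reads in the OCIAML5 controls) lost its call without either MOLM13 control or the first OCIAML5 control, and PCDHB9 (8 and 1 reads) without the first control of either line (log2 -5.25 and -3.37). PCDHGA5 lost its call without the second control of MOLM13 (log2 -3.31) or of OCIAML5 (-2.40).

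Per kilobase of private exon, PCDHGC3 stood at 10.1 ± 0.353 CPM/kb in MOLM13 controls and PCDHGA11 at 1.35 ± 0.0769. The next gene there, PCDHGB2, was at 0.0848 ± 0.0547 CPM/kb. In OCIAML5 controls of the PSPC1 experiment PCDHGA11 led with 0.722 ± 0.111 CPM/kb, followed by PCDHB2 with 0.474 ± 0.0196 and PCDHGB5 with 0.239 ± 0.165. PCDHGB5 and the genes that followed it, PCDHGB2 at 0.204 ± 0.0218 and PCDHGA6 at 0.182 ± 0.07 CPM/kb, differed by less than their spread. In the PU.1 controls PCDHB2 (0.315 ± 0.109 CPM/kb) and PCDHGA11 (0.30 ± 0.153) led and also differed by less than their spread.

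PSPC1 knockdown in OCIAML5 is the contrast from which the family was proposed, so its values are given as a description without tests. Reads were higher in all 3 clusters. The summed level was 6.23 times the control level for alpha, 3.77 times for beta and 3.63 times for gamma genes, and 4.06 times over all 54 genes (13.4 and 14.5 CPM in the controls, 57.2 and 56.3 after knockdown). Of 51 genes with a read, 35 had both knockdown libraries above both controls (29.6% of all genes with a read did) and none had both below (25.1% of all). For 15 of the 19 members that passed the filter the fit lies past the threshold used in the other comparisons (56.0% of all genes tested in either direction, 27.5% higher). Nothing is read from these counts, since the family was selected on this contrast.

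PCDHGA10, a gamma A gene, went from 4 and 7 reads to 147 and 109 (0.33 ± 0.159 to 6.1 ± 0.0586 CPM), a log2 change of 4.21 ± 0.49. PCDHA4 went from 16 and 7 reads to 134 and 122 (log2 3.20 ± 0.44), and PCDHB14 from 2 and 3 to 62 and 26 (log2 3.73 ± 0.77). The knockdown libraries of all 3 lay clearly above the controls. PCDHGA11, already the leading gamma gene of the controls, changed less, from 43 and 46 to 156 and 114 reads (log2 1.30 ± 0.26). PCDHB2 had 37 and 30 reads in the controls and 57 and 27 after knockdown, a ratio of 1.02 (0.733 to 1.43 by counting error) and a log2 change of 0.00 ± 0.48. PCDHGA5 went from 3 and 14 to 4 and 16 reads, PCDHGA6 from 14 and 21 to 19 and 37, and PCDHGC3 from 0 and 3 to 2 and 7. In each of these the libraries of the groups overlapped.

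Shares of reads within each cluster are likewise given as a description without tests. PCDHB2 took 48.2% of beta reads in the controls (95% Wilson interval 40.1 to 56.4%) and 12.9% after knockdown (10.6 to 15.7%). PCDHA4 took 31.9% of alpha reads before (22.3 to 43.4%) and 47.6% after (43.4 to 51.8%). Among gamma genes PCDHGA11 went from 33.5% (28.1 to 39.3%) to 22.6% (20.3 to 25.0%). PCDHGA10 had 11 of 266 gamma reads in the controls and took 21.4% after knockdown (19.2 to 23.8%). Such intervals pool the reads of both libraries of a group and cover counting error only. Per kilobase of private exon the leading genes after knockdown were PCDHGA11 (1.77 ± 0.0352 CPM/kb), PCDHGA10 (1.37 ± 0.0131), PCDHGB5 (1.18 ± 0.0166), PCDHGB2 (1.13 ± 0.203) and PCDHA2 (0.979 ± 0.44). Within that order PCDHGB5, PCDHGB2 and PCDHA2 differed by less than their spread.

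**Figure D3:**
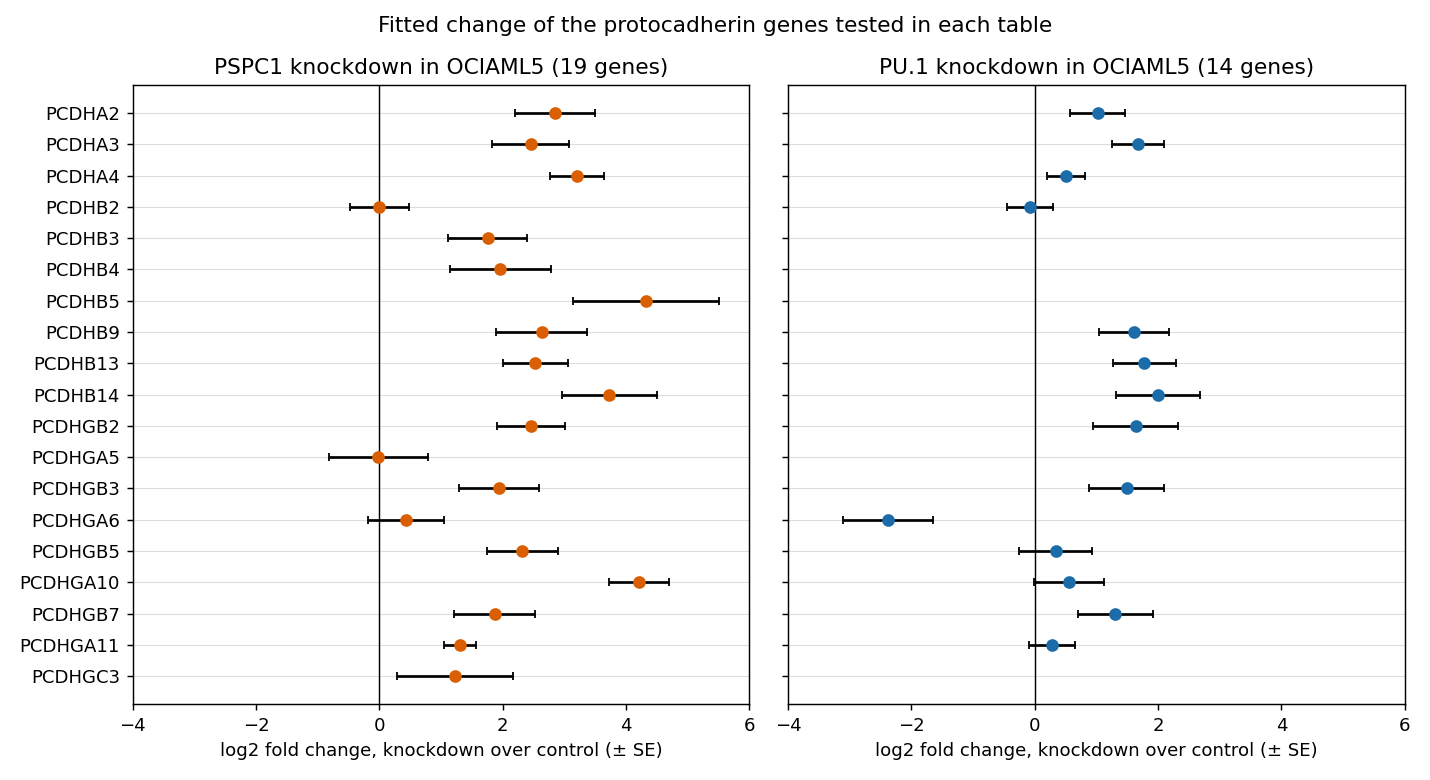
Fitted log2 fold change (knockdown over control, error bars: SE) of the 19 members tested for PSPC1 knockdown and the 14 tested for PU.1 knockdown, both in OCIAML5, in chromosomal order. PCDHGA10 lies at 4.21 on the left, PCDHB2 lies near 0 in both panels, and PCDHGA6 lies at -2.38 on the right.

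The same knockdown in MOLM13 gave few reads to compare. PCDHGC3 fell from 32.0 and 33.6 CPM in the controls to 24.1 and 26.3 CPM, from 701 and 563 to 366 and 448 reads. Neither knockdown library reached the lower control. The log2 change was -0.38 ± 0.14 (edgeR adjusted p = 0.017). The ratio of pooled reads, relative to pooled scaled library totals, was 0.772 (counting interval 0.706 to 0.844). The call was lost without the second control library (log2 -0.36, adjusted p = 0.079) and without the first knockdown library (-0.33, adjusted p = 0.10). PCDHGA11, with 112 and 79 reads against 86 and 76, had a log2 change of 0.03 ± 0.24 (adjusted p = 0.94).

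By edgeR, PCDHGC3 was thus the 1 member called of 19 tested (57.0% of all tested genes were called); it was lower (29.5% of all), and 0 were called higher (27.6% of all). At an unadjusted p under 0.05, and by DESeq2, 0 were higher as well. Only 11 of the 19 had a read in MOLM13 at all. The remaining genes held few reads, and some of them more after knockdown. Of 28 genes with a read, 6 had both knockdown libraries above both controls (28.6% of all genes with a read) and 1 had both below (26.5% of all). PCDHGA10 had no read in the controls and 2 and 1 after knockdown, no more than the floor of 3 reads. PCDHGA6 had 2 and 1 reads against 9 and 2 (adjusted p = 0.093). The gamma A and B genes other than PCDHGA11 summed to 19 and 10 reads in controls and 26 and 21 after knockdown, from 0.733 ± 0.191 to 1.47 ± 0.341 CPM.

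For the 8 tested members with reads in all 4 groups of the PSPC1 experiment, the log2 change in OCIAML5 minus that in MOLM13 could be computed. It was 1.27 ± 0.36 (SE) for PCDHGA11 and 1.61 ± 0.95 for PCDHGC3, the latter with 3 reads in all in the OCIAML5 controls. It was 3.52 ± 1.98 for PCDHB14, 1.91 ± 1.00 for PCDHGB2, 1.33 ± 1.40 for PCDHB13 and 1.06 ± 1.27 for PCDHGB3. For PCDHGA6 (-1.64 ± 1.22) and PCDHGA5 (-1.10 ± 1.99) it had the other sign. Apart from PCDHGA11, each rested on a group with 9 reads or fewer. No test is attached to these differences because the OCIAML5 contrast was used to choose the family.

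With PU.1 knockdown in OCIAML5 part of the family was higher. The alpha sum was 1.82 times the control level, the beta sum 2.07 times and the gamma sum 1.35 times. The gamma value was the least stable: leaving out 1 library gave log2 ratios of 0.21 to 0.70. For alpha these were 0.76 to 0.97 and for beta 1.00 to 1.10. PCDHB2 held 52.7% of beta reads in these controls (95% Wilson interval 45.1 to 60.1%) and 24.5% after knockdown (20.1 to 29.5%). Without PCDHB2 the beta sum was 3.39 times the control level, from 1.12 ± 0.329 to 3.8 ± 0.12 CPM. Of 51 genes with a read, 24 had both knockdown libraries above both controls (30.2% of all genes with a read) and 3 had both below (24.9% of all).

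Among single genes PCDHA3 rose from 15 and 20 reads to 53 and 48 (0.503 ± 0.0389 to 1.63 ± 0.412 CPM), a log2 change of 1.68 ± 0.42 (edgeR adjusted p = 0.00041). PCDHB13 rose from 9 and 12 reads to 31 and 35 (0.302 ± 0.0234 to 1.05 ± 0.104 CPM), a log2 change of 1.78 ± 0.51 (adjusted p = 0.0021). In both, each knockdown library lay well above each control, and both kept their call under every alternative that was run. By edgeR 5 further members rose. PCDHB14 (log2 2.00 ± 0.68, adjusted p = 0.0092) had 4 and 5 reads against 18 and 15, and PCDHB9 (1.61 ± 0.57, adjusted p = 0.012) had 5 and 13 against 29 and 20. Among gamma B genes, PCDHGB3 had 4 and 11 reads against 20 and 18 (1.49 ± 0.61, adjusted p = 0.031) and PCDHGB2 had 1 and 10 against 16 and 15 (1.64 ± 0.69, adjusted p = 0.034). PCDHA2 had 20 and 19 reads against 25 and 49 (1.02 ± 0.45, adjusted p = 0.046). The control libraries of PCDHB9, PCDHGB3 and PCDHGB2 differed much more from each other than those of PCDHA3.

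PCDHGA6, a gamma A gene, moved the other way. It had 19 and 16 reads in the controls and 3 in each knockdown library (0.513 ± 0.126 to 0.0963 ± 0.0177 CPM), a log2 change of -2.38 ± 0.73 (adjusted p = 0.0038). PCDHA4 (44 and 57 against 64 and 66 reads; log2 0.51 ± 0.31, adjusted p = 0.15) did not pass. PCDHB2 (log2 -0.08 ± 0.37), PCDHGA11 (0.28 ± 0.37) and PCDHGA10 (0.56 ± 0.57) had overlapping libraries, and PCDHGA10 was uneven within groups, with 7 and 20 against 8 and 29 reads.

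In all, edgeR called 8 of 14 tested members (60.4% of all 16861 tested genes), 7 higher (29.6% of all) and 1 lower (30.9% of all). The 14 had passed a filter on low counts that a gene can meet through 1 group alone, so this count is a description. PCDHB14 and PCDHGB2, for example, were low in the controls, and PCDHGA6 was low after knockdown. DESeq2 called 2, PCDHA3 and PCDHB13, and so did a fit of only the genes above 1 CPM in 2 or more libraries and the fit without the first control library. Without that library PCDHGB2 had a log2 change of 0.87 and PCDHB9 of 1.17. PSPC1 fell in this knockdown too (above), and its part in these values was not tested.

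**Figure D4:**
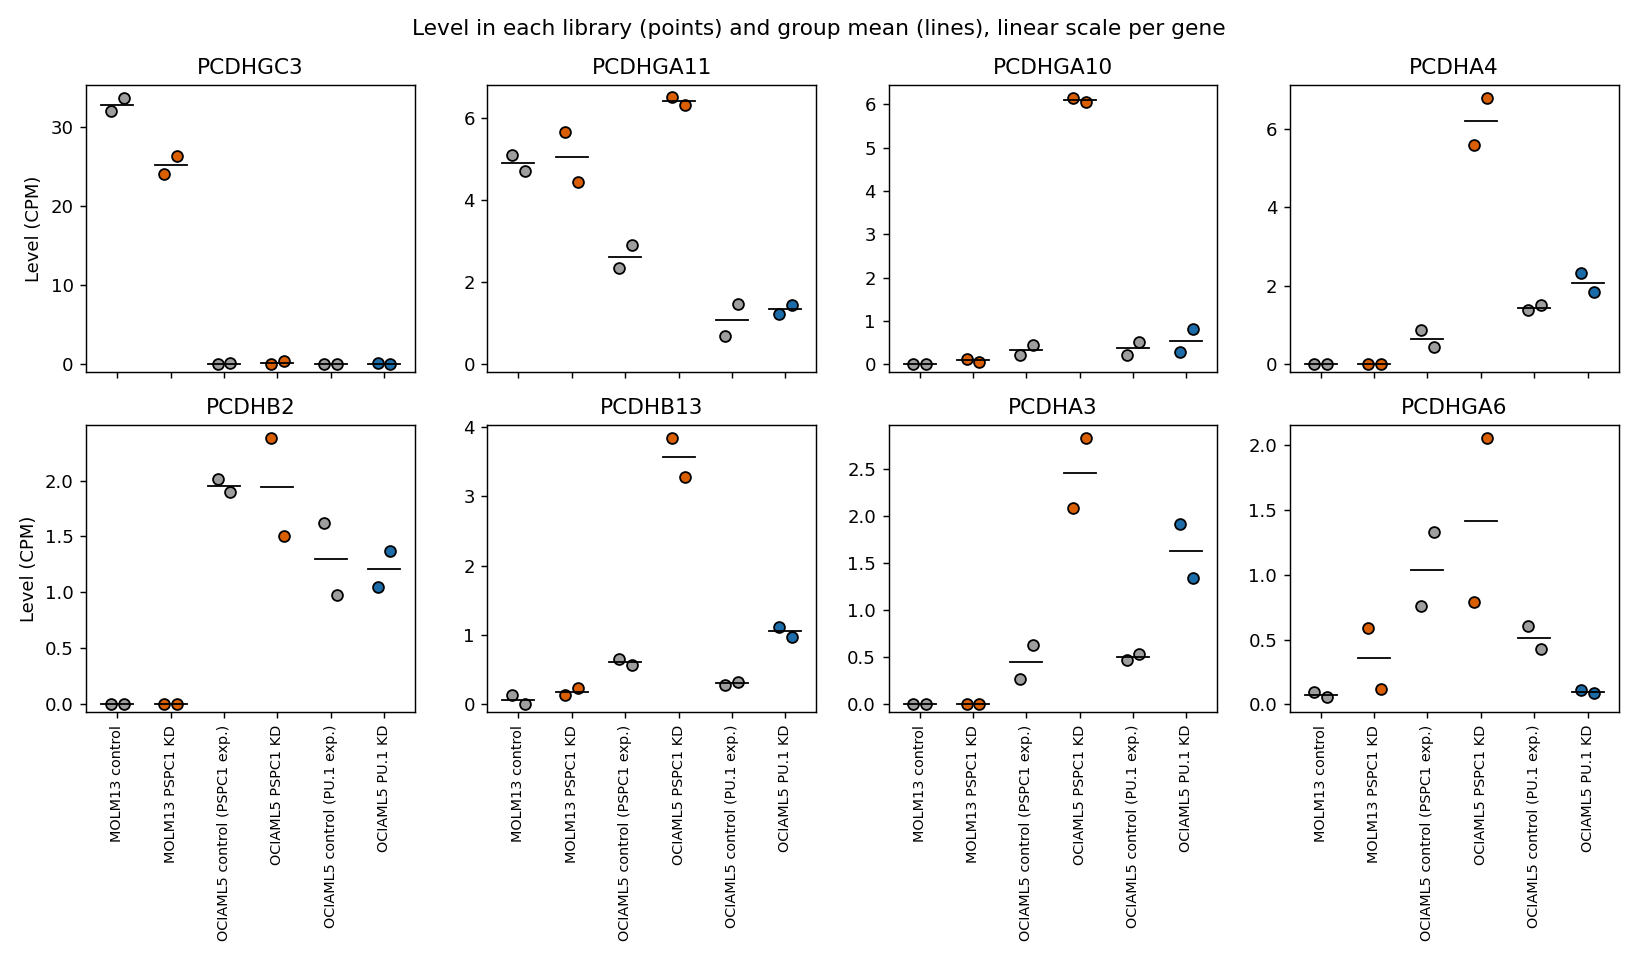
CPM of 8 members in each of the 12 libraries (points, 2 per group) with the group mean (line), each panel on its own linear scale. PCDHGC3 is near 0 outside MOLM13, PCDHGA10 and PCDHA4 are highest in OCIAML5 with PSPC1 knockdown (6.1 and 6.19 CPM), and PCDHGA6 is lowest within OCIAML5 after PU.1 knockdown (0.0963 CPM).

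For PCDHB2, PCDHGA6 and PCDHGA5, neither knockdown in OCIAML5 had both libraries above both controls. The same held for other members, PCDHGC3 among them. With PU.1 knockdown only 24 of 51 genes with a read had both libraries above. PCDHB2 stood at 1.95 ± 0.0808 CPM in the PSPC1 controls, 1.94 ± 0.623 after PSPC1 knockdown, 1.30 ± 0.449 in the PU.1 controls and 1.21 ± 0.223 after PU.1 knockdown. Its promoter stretch carries the same GGTGGCGCT letters as PCDHB13 and PCDHB14, so these letters do not separate them. PCDHGA5 had 4 and 6 reads in the PU.1 controls and 2 and 0 after knockdown, and was not tested there. Alpha genes with lower values after PU.1 knockdown were PCDHA10 and PCDHA5. PCDHA10 had 12 and 11 reads against 6 and 6 (ratio 0.57, counting interval 0.259 to 1.19), and PCDHA5 had 7 and 5 against 4 and 1 (ratio 0.455, 0.126 to 1.39). Both intervals include 1. PCDHA9, whose promoter lacks the core, had 0 and 0 reads in the OCIAML5 controls of the PSPC1 experiment and 10 and 0 after knockdown. PCDHB8, the beta gene without the core before its annotated start, has CGCT overlapping or after that start. It had 2 and 0 reads in the same controls and 6 and 11 after knockdown. The part of the core in these levels was not tested.

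Genes of chromatin architecture, DNA methylation and silencing, listed as possible regulators of the clusters, were mostly lower in every knockdown. Of 31 such genes tested, 7 were higher and 20 lower with PSPC1 knockdown in MOLM13, 7 and 17 in OCIAML5, and 8 and 18 with PU.1 knockdown (edgeR adjusted p under 0.05). Their median log2 changes were -0.30, -0.23 and -0.23, against 0.01, 0.02 and 0.02 over all tested genes. Of all tested genes, 27.6%, 27.5% and 29.6% were higher and 29.5%, 28.4% and 30.9% lower. CTCF, the insulator protein, changed by -0.60 ± 0.06 with PSPC1 knockdown in MOLM13 (adjusted p = 6e-13), -0.45 ± 0.05 in OCIAML5 (6e-10) and -0.49 ± 0.05 with PU.1 knockdown (2.6e-14). UHRF1, which directs maintenance DNA methylation, changed by -2.89, -2.06 and -1.41 in that order, and the maintenance methyltransferase DNMT1 by -1.86, -1.33 and -0.83. The cohesin subunit SMC1A changed by -1.87, -1.40 and -0.83. The cohesin loaders NIPBL and MAU2 rose with PSPC1 knockdown, by 0.44 and 0.55 in MOLM13 and by 0.43 and 0.49 in OCIAML5. Neither passed with PU.1 knockdown. SMCHD1, a repressor of the clusters, changed by -0.19, -0.24 and -0.42. TRIM28, a corepressor, changed by -1.22, -1.22 and -0.65. TET2, a methylcytosine dioxygenase, rose by 0.63, 0.94 and 0.82. Their part in the protocadherin levels was not tested.

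Genes that act with protocadherins at the membrane were also counted. Of 22 tested, 15 were higher and 4 lower with PSPC1 knockdown in MOLM13 (27.6% and 29.5% of all tested genes), and 13 and 5 in OCIAML5 (27.5% and 28.4%). With PU.1 knockdown 8 of 21 were higher (29.6% of all) and 6 lower (30.9% of all). NCKAP1L, the hematopoietic subunit of the WAVE actin regulatory complex, rose by 1.07 ± 0.04, 1.16 ± 0.04 and 0.29 ± 0.04 on the log2 scale. In the same complex CYFIP2 changed by 1.61, 1.33 and -0.50, and CYFIP1 by 0.38, 0.13 and -0.81. PTK2B, a kinase that binds protocadherin cytoplasmic domains, changed by 0.69, -0.53 and -1.78.

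Among 17 tested neighbours of the clusters, 5 were higher and 5 lower with PSPC1 knockdown in MOLM13 (27.6% and 29.5% of all tested genes) and 4 and 5 in OCIAML5 (27.5% and 28.4%), shares near those of all genes. With PU.1 knockdown 8 were higher and 6 lower (29.6% and 30.9% of all). TAF7, a TFIID subunit whose gene lies between the beta and gamma clusters (chr5:141260225-141320821, minus strand), rose by 0.22 ± 0.05, 0.58 ± 0.05 and 0.13 ± 0.05 (adjusted p = 0.00053, 1.2e-13 and 0.025). SLC25A2, a mitochondrial carrier gene inside the same interval, did not exceed a mean of 0.0834 CPM in any group. DIAPH1, a formin gene that lies just beyond the gamma cluster (chr5:141515016-141619055, minus strand), fell by 1.02, 1.49 and 0.58 on the log2 scale. Of 12 protocadherins outside the clusters, 3 were tested in the PSPC1 experiment and 1, PCDH12, in the PU.1 experiment. PCDH12 had log2 changes of 0.06 ± 0.50 (adjusted p = 0.95) and 0.40 ± 0.48 (0.50) with PSPC1 knockdown in MOLM13 and OCIAML5. With PU.1 knockdown it rose from 0.697 and 1.35 to 4.46 and 4.52 CPM (log2 2.10 ± 0.27, adjusted p = 2.4e-10).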

How the data were processed

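Poly(A) RNA libraries made with a stranded kit, per the labels, were sequenced from 12 samples in 6 groups. The authors deposited 2 tables of raw counts per gene. The submitters' processing notes name Trim Galore 0.6.7, STAR 2.7.10a, HTSeq 2.0.2, DESeq2 1.36.0 and GRCh38; no source used here gives their roles, the annotation release, the strand setting or the treatment of reads in shared exons. Genes were placed with GENCODE release 29, which matched 55237 of 60648 symbols and all 54 members.

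Each table was filtered with edgeR's filterByExpr, scaled by TMM and fitted across all genes with edgeR 4.0.16 quasi-likelihood tests in R 4.3.3 (PSPC1 experiment: 8 libraries, 4 residual degrees of freedom; PU.1 experiment: 4 libraries, 2). P-values were adjusted by Benjamini-Hochberg over all genes tested, with a threshold of 0.05, and the script was tested on simulated data. Of the 54 members, 19 and 14 passed the filter. Counting intervals are exact binomial or Wilson intervals at 95% and cover counting error only. Ratios with a counting interval compare reads pooled over a group, relative to its pooled scaled library totals, so they differ slightly from ratios of mean CPM. Folds against a group at 0 use a floor of 3 reads over the group. A permutation test over 2 against 2 libraries cannot go below p = 0.333 and was not used. Alternatives were DESeq2 1.42.0, other scalings and filters, a replicate block, the 4 libraries of a line alone and leaving out each library; sums without PCDHA4, PCDHB2, PCDHGC3 or PCDHGA11 were added after seeing the data.

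The members and gene lists were chosen with earlier results of these data known. Members were named where they passed the threshold outside the PSPC1 knockdown in OCIAML5, where they were among the 6 with most reads, or as PCDHGA10; PCDHA5, PCDHA9, PCDHA10, PCDHB5, PCDHB8, PCDHGC4 and PCDHGC5 were singled out after their values were seen. From the other lists, named genes are among the 4 smallest adjusted p-values with PSPC1 knockdown in MOLM13 or with PU.1 knockdown, plus CTCF, SMCHD1, TAF7 and SLC25A2. NIPBL and MAU2 were added after their values were seen.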

Additional observations from a re-analysis of the deposited data

Results flagged for a closer look

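For 3 sums that contain PCDHGC3, values lay in opposite directions with PSPC1 knockdown in the 2 lines: every MOLM13 knockdown library was below both of its controls and every OCIAML5 knockdown library above both of its controls. For the gamma cluster the log2 changes were -0.27 in MOLM13 and 1.86 in OCIAML5, a difference of 2.13. For the gamma C genes they were -0.37 and 2.24, a difference of 2.61, with 2 and 4 reads in the OCIAML5 controls. Over all 54 genes they were -0.25 and 2.02, a difference of 2.27. These differences were not tested, since the OCIAML5 contrast was used to choose the family. PCDHGC3 decided the direction in MOLM13: without it the gamma sum had a log2 change of 0.23 there, and the libraries overlapped. Without it the sum over the remaining 53 genes had a log2 change of 0.31 in MOLM13, with 8.57 and 6.62 CPM after knockdown above 6.44 and 5.85 in the controls, against 2.03 in OCIAML5. Beta genes had log2 ratios of 1.85 in MOLM13 and 1.91 in OCIAML5. The MOLM13 value rested on 3 and 2 reads in the controls and 6 and 9 after knockdown.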

How the results depend on the processing

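Low read numbers limit most members. With PU.1 knockdown, 8 members were called, against 2 with DESeq2, 2 when only genes above 1 CPM in 2 or more libraries were kept and 2 to 6 when 1 library was left out. DESeq2 called 1 of 28 members tested with PSPC1 knockdown in MOLM13 (45.6% of all genes) and 11 of 28 in OCIAML5 (44.4%). The fit reported called 1 and 15 of 19 (57.0% and 56.0%), and nothing is read from the OCIAML5 counts. Leaving out a library also changed how many members were tested, so calls are not counted there. PCDHGC3 then had log2 changes of -0.45 to -0.33 in MOLM13, and PCDHGA10 of 3.76 to 4.76 in OCIAML5. Between the control lines PCDHGA11 had log2 differences of 0.76 to 1.07. Scaling by library size alone shifts the log2 change of every gene by 0.15 with PU.1 knockdown, and moved the log2 ratio of sums with PU.1 knockdown from 0.87 to 1.02 for alpha and from 1.05 to 1.20 for beta, and with PSPC1 knockdown in MOLM13 from -0.27 to -0.22 for gamma. Leaving out PCDHA4 moved the alpha ratio to 2.25 (PSPC1, OCIAML5; 2.64 with it) and 1.11 (PU.1). Leaving out PCDHB2 moved the beta ratio to 2.67 (PSPC1, OCIAML5; 1.91 with it), 1.76 (PU.1) and -4.02 (MOLM13 against OCIAML5; -4.97 with it). Leaving out PCDHGC3 reversed the gamma ratio to 0.23 (PSPC1, MOLM13) and -0.37 (MOLM13 against OCIAML5; 2.30 with it). Same-numbered libraries did not deviate together (correlations 0.00 to 0.02), so the numbers do not pair them. With a replicate block, 1 and 14 of 19 members were called with PSPC1 knockdown in MOLM13 and OCIAML5 (56.1% and 55.1% of all genes). The block gave 7 calls with PU.1 knockdown and 15 between the lines.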

Other observations

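Among the unselected rows, 5 protocadherin pseudogenes of the beta and gamma clusters (PCDHB17P, PCDHB18P, PCDHB19P, PCDHGB8P and PCDHGB9P) lay outside the rule for members. Together they had 3 and 5 reads in the OCIAML5 controls of the PSPC1 experiment and 31 and 16 after PSPC1 knockdown (0.24 ± 0.108 to 1.09 ± 0.287 CPM, SD, n = 2). In MOLM13 they had 4 and 2 reads in the controls and 3 and 1 after knockdown. With PU.1 knockdown they had 4 and 4 reads in the controls and 2 and 20 after knockdown, so the knockdown libraries differed from each other more than from the controls. Reads of near-identical beta and gamma genes could have been counted for a pseudogene, which was not tested.

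CDH24, a classical cadherin gene outside the clusters, fell with PSPC1 knockdown (log2 -1.43 in MOLM13 and -2.44 in OCIAML5) and rose with PU.1 knockdown (28.8 and 27.3 to 95.4 and 97.9 CPM, log2 1.79 ± 0.06, edgeR adjusted p = 1.3e-36).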
